A study of Homo sapiens with 2 samples.

Results

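The genes described here encode the proteins of the cytoplasmic ribosome. Members were the protein-coding genes of GENCODE release 44 on chromosomes 1 to 22 whose symbol was RPL or RPS, an optional P, digits, and then at most the letters A or L and further digits. This rule took 80 of 19111 protein-coding genes on these chromosomes, spread over 20 chromosomes with 12 on chromosome 19, and left out the RPS6K kinases as well as ribosomal proteins on chromosome X. The open chromatin of their promoters was read from ATAC-seq, in which the transposase Tn5 inserts sequencing adapters where DNA is accessible, in SUM159 cells. SUM159 is an established triple negative breast cancer line of the claudin-low type with mesenchymal features. Both cell populations carried pLV-KRAB, a lentiviral vector for dCas9-KRAB, which is a Cas9 that no longer cuts joined to the KRAB repressor domain. The No gRNA population had no targeting guide, and the All gRNA population had 4 guides against the promoter of ZEB1. Each group held 1 library, so there is no replicate error, no test between the groups was made, and each difference below is one between these 2 libraries.

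Ribosomal proteins coat the ribosomal RNA of the large subunit (RPL genes), which joins amino acids, and of the small subunit (RPS genes), which reads the messenger RNA. Dividing cells make them in large and matched amounts, and a shortage of a single member can stall ribosome assembly and stabilise p53. Most of their messages start with a C followed by a run of pyrimidines, the 5′ terminal oligopyrimidine (TOP) start through which mTOR signalling controls their translation, and their promoters are compact and mostly without a standard TATA box.

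The letters at the transcript starts are shown for the members on which the account below turns: those with a main promoter peak in only 1 list (RPL12, RPS9 and RPS18), 3 of the 5 with the lowest height ratio (RPL38, RPS28 and RPL13A), the highest by ratio (RPS3), and members without a peak at the start (RPL41, RPL19 and RPL10L). Sequences are from RefSeq on GRCh38.p14 and hold 40 bases before the start and 20 from it on, 5′ to 3′ on the strand of the gene. Capitals mark a start at C followed by at least 4 further C or T, up to the first A or G, and an entry without capitals does not have one.
RPL12 (chr9:127451387-127451446, minus strand): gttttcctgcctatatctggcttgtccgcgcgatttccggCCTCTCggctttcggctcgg
RPS9 (chr19:54200818-54200877, plus strand): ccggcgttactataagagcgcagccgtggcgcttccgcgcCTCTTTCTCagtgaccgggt
RPS18 (chr6:33272035-33272094, plus strand): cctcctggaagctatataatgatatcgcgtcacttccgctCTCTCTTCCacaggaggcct
RPL38 (chr17:74203638-74203697, plus strand): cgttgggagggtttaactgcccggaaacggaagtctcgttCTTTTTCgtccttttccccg
RPS28 (chr19:8321456-8321515, plus strand): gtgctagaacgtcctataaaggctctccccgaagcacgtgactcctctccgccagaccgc
RPL13A (chr19:49487568-49487627, plus strand): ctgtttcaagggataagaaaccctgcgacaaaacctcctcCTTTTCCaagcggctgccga
RPS3 (chr11:75399478-75399537, plus strand): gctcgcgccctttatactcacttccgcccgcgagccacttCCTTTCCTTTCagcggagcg
RPL41 (chr12:56116593-56116652, plus strand): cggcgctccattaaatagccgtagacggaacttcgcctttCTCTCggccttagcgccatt
RPL19 (chr17:39200243-39200302, plus strand): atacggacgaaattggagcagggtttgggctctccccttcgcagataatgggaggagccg
RPL10L (chr14:46651762-46651821, minus strand): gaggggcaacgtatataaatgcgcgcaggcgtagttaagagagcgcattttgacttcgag

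RefSeq promoters were matched for 63 of the 80 members, and 17, among them RPL17, had no entry. A pyrimidine start as marked above was found in 43 of the 63 members (68.3%), against 683 of all 14616 promoters in the table (4.67%). The longest run was 16 bases, in RPL7A. Over the 300-base window from 250 bases before the start, and counting both strands, the ETS-type word CCGGAAG was in 33.3% of members and 14.9% of all promoters. The YY1-type word AAGATGG, which can share its first letters with CCGGAAG, was in 14.3% and 6.49%. The TATA box word TATAAA was in 11.1% of members and 9.46% of all promoters, and the Sp1-type word GGGCGG in 54.0% and 62.2%. From 10 bases before to 15 after the start, on either strand, CTTTTC was in 14.3% of members and 1.44% of all promoters, CTTTCC in 25.4% and 2.05%, and CTCTTT in 12 of the 63 members and 1.48% of all promoters. These 3 words overlap each other and the pyrimidine start. The median GC content was 60.3% in members and 64.0% in all promoters. These shares describe letters and were not tested.

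The peak lists were taken as the authors deposited them, 74757 peaks without guides and 75217 with them. The height of a peak is its summit pileup, the number of read ends in a window of 200 bp at the summit, which was solved from the deposited fold and −log10 p. By the lists, the No gRNA library held 8.80e+06 read ends and the All gRNA library 6.54e+06, which is 0.743 times as many, and a height ratio is All gRNA over No gRNA divided by this depth ratio. The 95% intervals given with the ratios are exact binomial (Clopper-Pearson) and cover counting error only. At ZEB1, which the guides target, the main promoter was called in No gRNA with a height of 25 and was not called in All gRNA. Within 4000 bp of any ZEB1 start there were 3 peaks in No gRNA and 2 in All gRNA. As a check of the cell type, the mesenchymal markers VIM, CD44, AXL, CAV1 and CDH2 all had a main promoter peak in both libraries. After depth scaling all 5 were lower in All gRNA, as were 74.1% of all genes with a main promoter in both lists. The lowest were CD44, at 30 and 9 with a ratio of 0.404 (0.169 to 0.872), and AXL, at 22 and 9 with 0.551 (0.223 to 1.24). CDH1, EPCAM, ESRP1, GRHL2 and CLDN4, which mark epithelial cells, had no main promoter peak in either library. Away from the main start, EPCAM had a peak within 4000 bp of a start in both libraries, and CDH1 and CLDN4 had one in No gRNA only. Of the luminal breast markers, FOXA1, GATA3 and KRT18 had a main promoter peak in both libraries, with heights of 64 and 45, 26 and 17, and 16 and 11. ESR1 and PGR had no main promoter peak in either, and each had a peak within 4000 bp of a start in No gRNA only.

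Almost every ribosomal protein gene had open chromatin near an annotated start in both libraries. A peak lay within 4000 bp of an annotated start for 78 of the 80 members in No gRNA, where 75.1% of all protein-coding genes had one, and for 77 members in All gRNA, where the share of all genes was 74.7%. RPL12 and RPS9 had such a peak in No gRNA only, as did 2.94% of all genes. RPL39L alone had one in All gRNA only, as did 2.57% of all genes. RPL10L was the sole member with no peak in the window in either library, its nearest peak being 6600 bp upstream in No gRNA and 6645 bp in All gRNA. These windows held 120 No gRNA peaks, of which 107 overlapped an All gRNA peak (89.2%, against 82.5% for all protein-coding genes), and 126 All gRNA peaks, of which 115 were shared (91.3%, against 87.5%).

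For each gene the main promoter was the merged region of overlapping peaks from either list that held the start of the Ensembl canonical transcript, or else the nearest within 1000 bp. It was present for 75 members, in both lists for 72 of them. RPL12, RPS18 and RPS9 had it in No gRNA only, 3 of 75 members, where 4.96% of all genes with a main promoter were of this kind. No member had it in All gRNA only, and 2.7% of all genes did. The remaining 5 members, RPL41, RPL19, RPL39L, RPL10L and RPL3L, had no main promoter in either list.

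The typical ribosomal protein promoter was as tall as the typical protein-coding promoter. The median height over the 72 members was 66 in No gRNA and 41 in All gRNA, and both medians were those of the 11485 protein-coding genes with a main promoter in both lists. When all these genes were put into 5 equal groups by No gRNA height, the group of lowest genes held 11 members, the next 3 groups held 18, 19 and 18, and the group of tallest genes held 6. The median fold over the local background was 14.4 in No gRNA and 12.3 in All gRNA for members, and 15.0 and 13.1 for all genes. Large subunit members, without the paralogs, had median heights of 65 and 38, and small subunit members 66 and 44.

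RPL36AL, an autosomal copy of the RPL36A gene, had the tallest member promoter, at 179 in the No gRNA and 121 in the All gRNA library, and shared it with MGAT2, an enzyme of N-glycan synthesis. RPS29 followed with 151 and 95. RPL23A, whose protein sits at the mouth of the tunnel through which new chains leave the ribosome, had 140 and 75. RPL15 had 131 and 101. In All gRNA the tallest were RPL36AL and RPL15. At the other end were RPS18 with 8 and RPS9 with 9 in No gRNA, both without a peak in All gRNA. RPL23 had 19 and 13. RPL38, the large subunit protein linked to translation of Hox messages in mouse embryos, had 20 and 7. RPL4, which lines the exit tunnel, had 20 and 12.

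**Figure D1:**
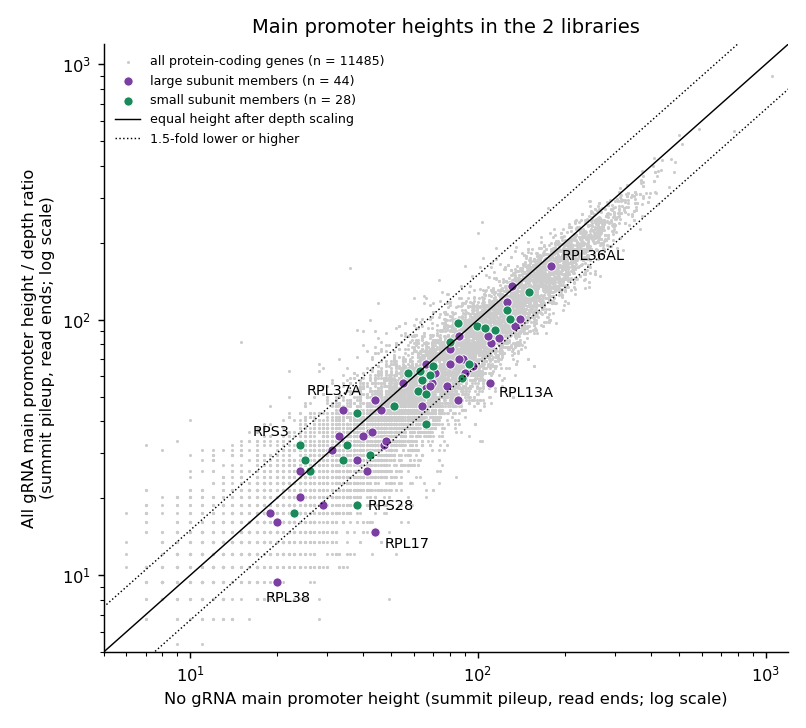
Height of the main promoter in No gRNA (horizontal axis) against the height in All gRNA divided by the depth ratio (vertical axis), both in read ends on log scales, for 11485 protein-coding genes (grey) and for 44 large subunit and 28 small subunit members, paralogs included. The solid line marks equal heights and the dotted lines 1.5-fold, and 8 members lie below the lower dotted line and 0 above the upper.

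After depth scaling, 57 of the 72 members were lower and 15 higher in All gRNA, with a median log2 ratio of −0.25, close to the median of −0.22 over all genes. On this scale the whole set of protein-coding promoters was thus shifted by about as much as the members. Past 1.5-fold lower were 8 members (11.1%), where 16% of all genes were. Past 1.5-fold higher were 0 members, where 3.2% of all genes were. When the libraries were scaled by the median ratio of shared peaks instead, 10.5% of all genes were past 1.5-fold lower and 4.68% higher, and the members were 6 and 0. The counting interval lay below 1 for 11 members (15.3%) and 16.5% of all genes, and above 1 for 0 members and 1.63% of all genes. The share of members past the fold was therefore near or under the share of all genes in both directions.

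RPL17, a protein at the rim of the exit tunnel, had the lowest ratio of the members. Its pileup was 44 without guides and 11 with them, a ratio of 0.336 (0.157 to 0.662), and 0.235% of all genes had a lower ratio. The No gRNA peak was 378 bp wide and the All gRNA peak 206 bp. The region also holds the start of RPL17-C18orf32, a readthrough transcript that runs from RPL17 into the next gene, so the value belongs to both. It was the only member whose whole interval lay under the line of 1.5-fold lower.

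RPL38 had heights of 20 and 7, a ratio of 0.471 with an interval that held 1 (0.168 to 1.16). RPS28, at the exit of the messenger channel on the small subunit, had 38 and 14, a ratio of 0.496 (0.248 to 0.936), in a region that it shared with NDUFA7 and a gene without a symbol. RPL13A, known for its part in silencing inflammatory messages outside the ribosome, had 110 and 42, a ratio of 0.514 (0.351 to 0.739). RPL13A was thus the tallest of the members past 1.5-fold, and 74.4% of all genes were lower than it in No gRNA but 50.3% in All gRNA. RPL24, which forms a bridge between the subunits, had 85 and 36, a ratio of 0.570 (0.375 to 0.851). RPS14, the gene tied to anaemia in the 5q deletion syndrome, had 66 and 29, a ratio of 0.591 (0.368 to 0.928). For RPL29 the heights were 41 and 19 and for RPL32 they were 29 and 14, with ratios of 0.624 and 0.650 and intervals that held 1. Further members with an interval below 1 were RPS24, RPL18, RPL8, RPL37 and RPL23A, with ratios from 0.673 to 0.721.

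RPS3, which lines the entry of the messenger channel and also acts in DNA repair, had the highest ratio. Its height was 24 in each library, the only member with equal pileups, which gave 1.35 after scaling (0.732 to 2.47). RPL37A had 34 and 33, a ratio of 1.31 (0.784 to 2.17). RPS13 with 85 and 72 had a ratio of 1.14, and RPS2, another protein of the messenger channel, with 38 and 32 had 1.13. These 4 intervals held 1, and no member was higher in All gRNA beyond its counting error. Before scaling, 71 of the 72 members had a lower pileup in All gRNA.

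**Figure D2:**
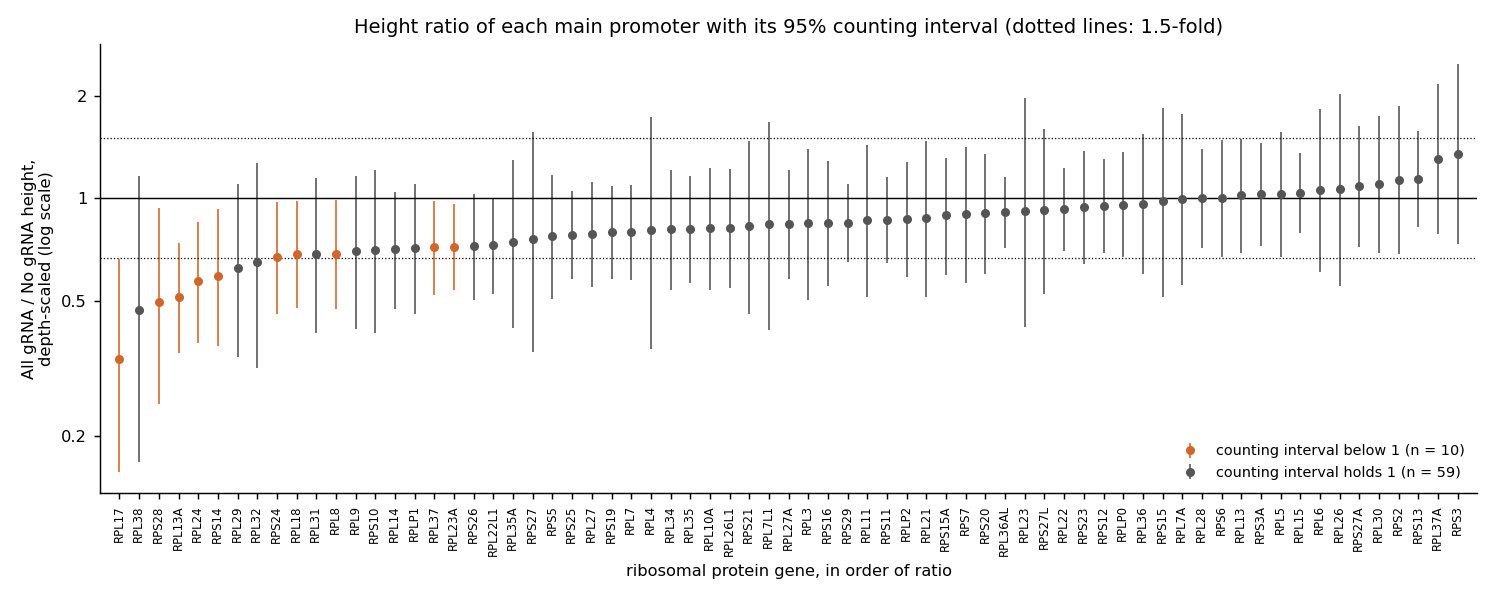
Depth-scaled height ratio of All gRNA over No gRNA (vertical axis, log scale) for 69 members with a main promoter in both lists, in order of ratio; bars are 95% counting intervals, the solid line is a ratio of 1 and the dotted lines are 1.5-fold. The 10 members in colour have an interval below 1, from RPL17 at 0.336 to RPL23A at 0.721, and the interval of every other member plotted holds 1.

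Well known members lay on both sides of equal height. RPS6, the target of the S6 kinases, had heights of 63 and 47, a ratio of 1.00 (0.673 to 1.49). RPL5 and RPL11, which with the 5S RNA bind MDM2 when assembly fails, had 55 and 42 and 42 and 27, with ratios of 1.03 (0.671 to 1.56) and 0.865 (0.513 to 1.44). RPS19, the gene most often mutated in Diamond-Blackfan anaemia, had 115 and 68, a ratio of 0.796 (0.581 to 1.08). RPS27A, made as a fusion with ubiquitin, had 57 and 46, a ratio of 1.09 (0.720 to 1.63). Of the stalk proteins, which recruit the elongation factors, RPLP0 had 80 and 57, RPLP1 had 64 and 34, and RPLP2 had 71 and 46, and their ratios of 0.959, 0.715 and 0.872 all had intervals that held 1.

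The 8 members whose symbols mark a paralog fell into 2 kinds. RPL36AL, RPL22L1, RPL26L1, RPL7L1 and RPS27L had a main promoter in both libraries, and RPL10L, RPL39L and RPL3L in neither. RPL10L and RPL39L are known mainly from testis and RPL3L from muscle. RPL22L1 had heights of 111 and 60, beside 126 and 87 for RPL22. RPL26L1 had 69 and 42, above the 24 and 19 of RPL26, and RPS27L, a gene induced by p53, had 35 and 24, above the 23 and 13 of RPS27. RPL7L1 had 24 and 15, below the 108 and 64 of RPL7. RPL36AL was above RPL36A on chromosome X, which had 53 and 30. The genes that RPL10L, RPL39L and RPL3L resemble all had peaks: 35 and 21 at RPL10, 39 and 22 at RPL39, and 43 and 27 at RPL3. The paralog ratios ran from 0.727 for RPL22L1 to 0.923 for RPS27L, and all 5 intervals held 1.

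Ribosomal protein promoters were somewhat narrower than the typical protein-coding promoter. The median width, as base pairs covered by peaks in the main promoter, was 612 bp in No gRNA and 482 bp in All gRNA for members, against 668 and 596 bp for all genes. In All gRNA 56 of the 72 members were narrower (77.8%), where 69.2% of all genes were, and the median difference was −57 bp for members and −44 bp for all genes. Peak width depends on depth and on the call limit, and the part of these in the difference was not tested. In the related lists described below, No gRNA medians were also under that of all genes. They were 630 bp for mitochondrial ribosomal proteins, 635 bp for ribosome biogenesis and 654.5 bp for genes with TOP messages. For ribosomal proteins outside the rule the medians were 647.5 bp in No gRNA and 388 bp in All gRNA, the latter under that of members. The widest No gRNA members were RPL7 with 1634 bp, RPL36AL with 1083 bp and RPL4 with 963 bp, each in a region shared with the start of a neighbour, RDH10, MGAT2 and ZWILCH. In All gRNA these were 1571, 914 and 277 bp wide. RPL4 thus had the largest loss of width, 686 bp, with heights of 20 and 12, and RPL7A, shared with MED22, went from 915 to 369 bp with heights of 31 and 23. RPL5 had the largest gain, from 429 to 689 bp. The narrowest were RPS18 with 200 bp, the shortest length in the lists, RPS27 with 236 bp and RPL36 with 289 bp, and the last 2 were 208 and 255 bp wide in All gRNA.

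The open region lay mostly upstream of the start. The summit was upstream in 59 of 72 members (81.9%) in each library, against 69.3% and 69.2% of all genes, at a median position of −125 bp from the start in No gRNA and −146.5 bp in All gRNA (negative is upstream), where the median for all genes was −82 bp in both. Among the related lists described below, the upstream share was 81.25% in both libraries for genes with TOP messages. It was 94.1% and 82.4% for ribosome biogenesis and 100% and 87.5% for ribosomal proteins outside the rule. For mitochondrial ribosomal proteins it was 66.7% and 62.7%. The No gRNA peak ran from a median of −435 bp to 167 bp for members, and from −352 to 252 bp for all genes. The annotated start lay between the outermost peak edges of the main promoter for 71 of 75 members in No gRNA and for 59 of 72 in All gRNA. Summits of the libraries lay within 100 bp of each other for 68 of 72 members. Members with a pyrimidine start (39 of those with heights in both lists) had median heights of 66 and 41, and the 18 without one 46 and 26.5. Their median log2 ratios were −0.25 and −0.27.

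**Figure D3:**
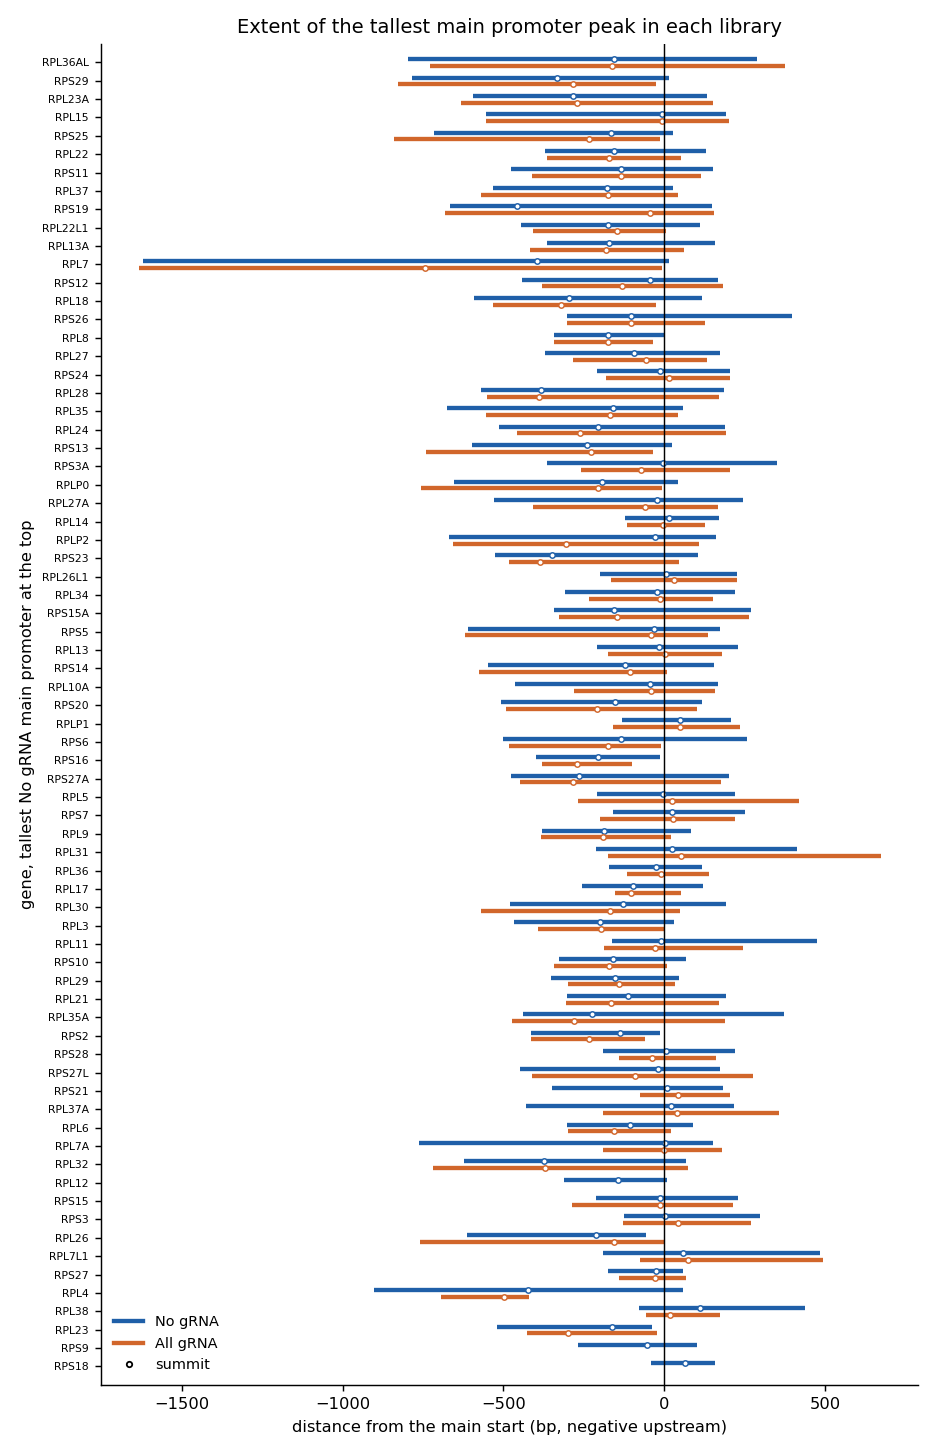
Extent of the main promoter between its outermost peak edges (bars) and summit of its tallest peak (circles) as distance in bp from the main start, negative upstream, for 72 members with a main promoter, No gRNA above and All gRNA below for each gene, in order of No gRNA height. A bar spans the gaps where a library had more than 1 peak in the region, as for RPL7, RPL26 and RPL36AL in All gRNA. Most bars reach further to the left of the start than to the right, RPL7 extends furthest upstream, and RPL12, RPS9 and RPS18 have a No gRNA bar only.

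A main promoter region shared with another protein-coding gene was found for 15 of the 72 members (20.8%), close to the 20.4% of all genes. Shared means that the same merged region was the main promoter of both genes, whose starts can differ. The readthrough RPL17-C18orf32 counted as such a gene. In such a region a peak cannot be assigned to either gene. The 57 members alone in their region had median heights of 66 and 41 and a median log2 ratio of −0.24, and the 15 that shared it 57 and 46 and a median log2 ratio of −0.31.

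RPL12 was singled out for having no All gRNA peak, so its values are a description. Its protein forms the base of the stalk together with RPLP0. The gene (ENSG00000197958.13) lies on the minus strand of hg38 chromosome 9 from 127447674 to 127451406, and its start is head to head with LRSAM1, a ubiquitin ligase gene whose main start is at 127451510. In No gRNA the main promoter peak ran from 127451398 to 127451716, over exons of both genes, with a height of 29, a fold of 8.47 and a −log10 q of 18.6. A second peak from 127451858 to 127452286, over an exon of LRSAM1, had a height of 16. No gRNA peaks covered 1104 bp within 4000 bp of an RPL12 start in 3 peaks, and All gRNA peaks covered 0 bp. The shared promoter was therefore a modest one in No gRNA and was not called at all in All gRNA.

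The absence extended beyond the promoter. No All gRNA peak lay between 127424845 and 127519456, a stretch of 94610 bp from 26561 bp on one side of the RPL12 start to 68050 bp on the other. The No gRNA list had 6 peaks in it. Besides the 2 named, they were 2 over exons at the end of ZNF79, with heights of 15 and 16, 1 just past that gene with 14, and 1 just past LRSAM1 with 15. Among 68215 stretches between neighbouring All gRNA peaks, 6 held at least as many No gRNA peaks, this one included, and the others were all longer. Because RPL12 was chosen for lacking All gRNA peaks, this count describes the stretch and cannot measure how unusual the absence is. The genes on either side kept their main promoters: ZNF79 had heights of 46 and 27, SLC2A8 197 and 137, and NIBAN2 39 and 28, with ratios of 0.790, 0.936 and 0.966.

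Scaled to the All gRNA depth, the RPL12 peak would have a height of 21.6, and the lowest pileup called in All gRNA at a like background was 8. A promoter just at that limit would have a ratio of 0.371, so a weaker signal below it cannot be told apart from none in these lists. For the other 5 peaks of the stretch the scaled height was 0.867 to 2.23 times the lowest called pileup, and it was below that limit at 1 of them, just past the end of ZNF79.

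**Figure D4:**
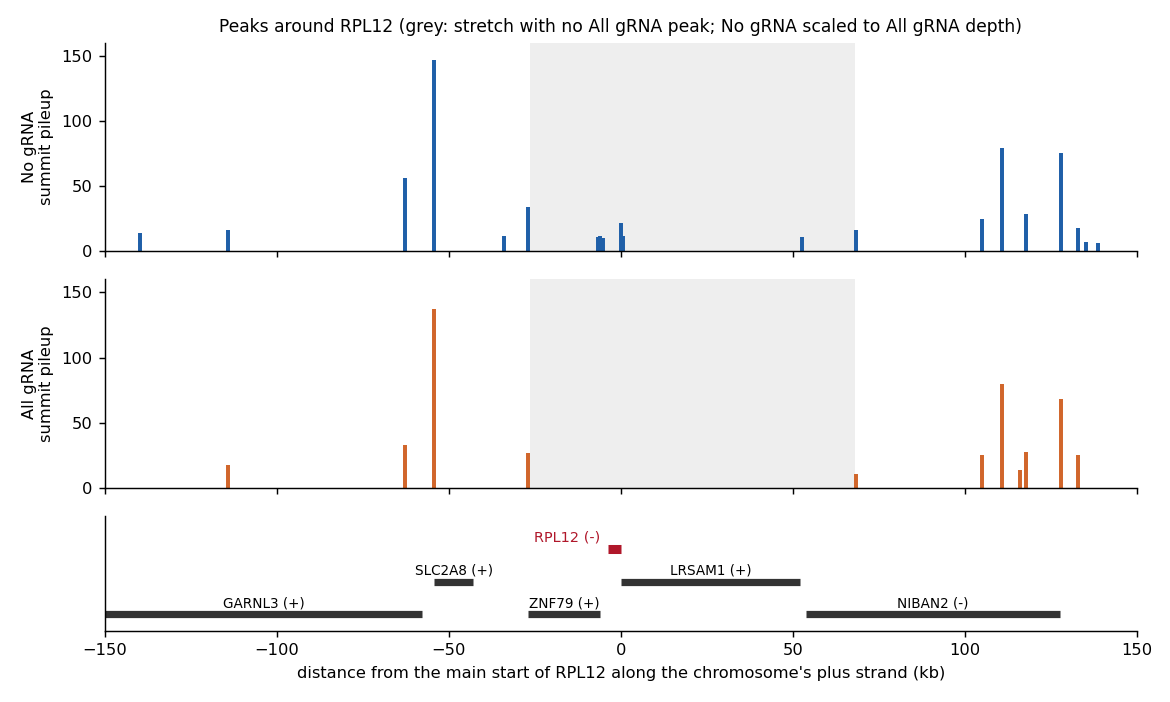
Summit pileup of each peak within 150 kb of the main start of RPL12, in read ends, with No gRNA (top) scaled to the depth of All gRNA (middle) and protein-coding genes below, against distance in kb along the plus strand. The grey stretch of 94610 bp holds 6 No gRNA peaks and no All gRNA peak, and the tall peaks on both sides, such as that of SLC2A8, are present in both.

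At their own chromosome positions, the RPS9 and RPS18 peaks that the All gRNA list lacked were much lower than that of RPL12. RPS9, a protein of the decoding region, had a No gRNA peak over its first exon on hg38 chromosome 19, 54200590 to 54200960, with a height of 9 and a −log10 q of 6.37. Scaled to the All gRNA depth it would be 6.69, against a lowest called pileup of 4. RPS18, at the head of the small subunit, had a No gRNA peak on chromosome 6 from 33272033 to 33272232, over exons of RPS18 and of VPS52, with a height of 8 and a −log10 q of 4.45, which would be 5.94 against a lowest called pileup of 4. Both promoters have exact copies of sequence near the start on alternate contigs of hg38, 9 for RPS9 and 5 for RPS18, to which reads of these genes can also be placed. On those contigs the RPS9 copies had summed heights of 8 without and 7 with guides, and the RPS18 copies 28 in No gRNA, in 3 contigs, and no peak in All gRNA. Together with the copies RPS9 came to 17 and 7 and RPS18 to 36 and none. In No gRNA, RPS18 with its copies was thus above the 29 of RPL12. The part of these copies in the low heights of RPS9 and RPS18 was not tested.

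RPL41 and RPL19 had a called peak near their start in both lists but none at it, where a weaker signal under the call limit cannot be seen. RPL41, the shortest ribosomal protein, had its nearest peak 1302 bp downstream of the main start in No gRNA, with a height of 106, and 1299 bp in All gRNA, with 57. RPL19 had its nearest peak 2348 bp upstream in No gRNA, with a height of 30, and 2532 bp in All gRNA, with 12. RPL39L had no peak at its main start, and the All gRNA peak in an intron, at 187137071 to 187137342 on chromosome 3, had a height of 17, which would be 22.9 at the No gRNA depth against a lowest called pileup of 5. RPL3L, whose window took in peaks near another of its starts, had the peak nearest its main start 4706 bp upstream in No gRNA, with a height of 78, and 4698 bp in All gRNA, with 24.

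Other genes of the translation machinery were read in the same way, from lists defined by gene symbol or function. These lists were chosen with earlier results of these data known. Of 78 mitochondrial ribosomal protein genes, 75 had a main promoter in both lists, with median heights of 61 and 38 and a median log2 ratio of −0.20. In this list 10 of the 75 were past 1.5-fold lower, where 16% of all genes were. Past 1.5-fold higher was 1, where 3.2% of all genes were. The lower ones were MRPL34, MRPL51, MRPL53, MRPL54, MRPL57, MRPL9, MRPS10, MRPS23, MRPS28 and MRPS31, and the higher one was MRPL22. The counting intervals of MRPL53, MRPL9, MRPS10 and MRPL22 held 1. Of 8 cytoplasmic ribosomal proteins outside the rule, such as RPL10 and RPS4X on chromosome X, 8 had a main promoter in both lists and 0 were past 1.5-fold either way. Of these, RPSA, the laminin receptor protein of the small subunit, had heights of 107 and 111, a ratio of 1.40 (1.06 to 1.84). Of 17 translation factors and other genes with TOP messages, 16 had a main promoter in both lists, at taller median heights of 111 and 63.5. There 2 of the 16 were past 1.5-fold lower, BTF3 at 103 and 50 and EIF3K at 57 and 20, against 16% of all genes. EEF2, the factor that moves the ribosome along, had no main promoter in either list. Of 18 ribosome biogenesis genes, 17 had a main promoter in both, with median heights of 72 and 44. Past 1.5-fold lower was 1 of the 17, PES1 at 109 and 42, again against 16% of all genes.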

How the data were processed

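ATAC-seq peak lists of 2 libraries of the SUM159 line were used, 1 for each group. The authors trimmed reads with fastp, mapped them with Bowtie2 to hg38, removed mitochondrial reads, excluded regions and duplicates with SAMtools, and called peaks in each library by MACS2 with no control. Tool versions are not given in the sources used here. The deposited columns give each summit a score, a −log10 p-value, a −log10 q-value and, as a ratio, the fold over local background; the deposited score was not used. Members, lists and comparisons were chosen with earlier results of these data known.

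Summit pileup and background were solved from the deposited fold and −log10 p by the MACS2 formulas, and whole pileups were found for 100% of peaks in both lists. The procedure was tested on simulated data. The ratio of the lowest backgrounds, 0.652 in No gRNA and 0.484 in All gRNA, gave the depth ratio. The depth in read ends uses a window of 200 bp, the shortest peak length, and not the stated extension. Peaks of both lists were joined when they overlapped by at least 1 bp. Starts came from GENCODE release 44, and 4000 bp was the promoter distance of the study. With 1 library per group no test was made, and called means past 1.5-fold after depth scaling. Copies on alternate contigs were exact matches of 3 probes of 50 bp around the main start. The lowest called pileup was read from peaks whose background was within 0.1. Alternatives were other distances, scalings, overlap and q thresholds, and lists without paralogs, without shared regions or, chosen after seeing the data, without copied members.

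The text names RPL12, members with no promoter peak or no main promoter in a list, paralogs, the stalk genes, RPS27A, RPS6, RPL5, RPL11, RPS19 and RPL13A, the 5 highest and lowest members by No gRNA height and by ratio, the 3 widest and narrowest, and, of other lists, genes with no main promoter or past 1.5-fold. RPL7A and further members named for a count, a width or an interval, and RPSA, were chosen after their values were seen. Some genes that this rule names are not reported here; they stay in the counts and medians. Python 3.11.15, numpy 2.4.6, pandas 2.3.3, scipy 1.17.1 and matplotlib 3.10.9 were used.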

Additional observations from a re-analysis of the deposited data

Results flagged for a closer look

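Peaks on alternate contigs of hg38, which the comparisons of main promoters do not use, held signal at exact copies of member promoters. The summed summit pileup on the copies of RPS18 was 28 in No gRNA, with no peak in All gRNA, and on those of RPS9 it was 8 in No gRNA and 7 in All gRNA. With 1 library per group these differences have no replicate check.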

How the results depend on the processing

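Of 44 alternative values for the 7 main results, 35 moved by less than their limit and 9 moved further. Only the median log2 ratio and the median width difference could change direction, and neither did. The other results are counts or a length, which have no direction. The median log2 height ratio of members, −0.25 with depth scaling, was −0.14 when scaled by the median ratio of shared peaks and −0.67 without scaling, while that of all genes was −0.22, −0.11 and −0.65. The number of members past 1.5-fold lower, 8, was 45 without scaling, where 57.2% of all genes were, 5 with the deposited fold as height, where 9.16% of all genes were, and 5 of the 67 left with a −log10 q of at least 10, where 13.7% of all genes were. The RPL12 length covered in No gRNA, 1104 bp, was 748 bp within 1000 bp of a start and also with the canonical start alone, 1621 bp within 10000 bp and 319 bp with a −log10 q of at least 10, and it was 0 bp in All gRNA under each of these. Scaling thus set the number of calls more than any other choice. No paired analysis was possible because there was 1 library in each group. A member absent from a list may lie under the call limit of that list.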

Other observations

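The windows of members held 13 peaks called in No gRNA alone, those of RPL12, RPS9 and RPS18 among them, and 11 in All gRNA alone. The tallest in No gRNA lay at −2029 bp from the RPL23A start (negative is upstream), with a summit pileup of 50, and the next at −653 bp from the RPL9 start, with 31. In All gRNA the tallest lay at 5423 bp from the RPL23A start, with 28, and the next was the RPL39L peak described above. These peaks were chosen after their values were seen.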
